A study of Mus musculus with 12 samples.

Results

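The genes described here are the Notch receptors Notch1, Notch2, Notch3 and Notch4, the ligands Dll1, Dll4, Jag1 and Jag2, and the target genes Hes1 and Hey1. They were chosen by name: the 10 symbols were looked up among the 24422 features of the deposited count tables. All 10 were present in every library, and all 10 passed the filter on low counts, which kept 16713 genes for testing. The lowest count of any of them in any library was 203, for Notch4.

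Notch signalling passes between touching cells. A Delta-like (Dll) or Jagged (Jag) ligand on one cell binds a Notch receptor on its neighbour, ADAM proteases and then gamma-secretase cut the receptor, and the freed intracellular domain joins the DNA-binding protein RBPJ to switch on genes such as Hes1 and Hey1, which encode transcriptional repressors. In blood vessels the pathway guides sprouting and arterial identity, and in adipose tissue it is known for restraining browning and influencing adipocyte precursors.

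The study asked how Tert, the catalytic subunit of telomerase, affects gene expression when the promoter of p21 (Cdkn1a) drives it in obese mice. RNA came from primary stromal cells of adipose tissue (the stromal vascular fraction, which holds everything but the mature adipocytes). There were 4 groups of 3 libraries: genotype p21+/mcherry on Standard Diet (SD mCherry, replicates 1, 2 and 3), p21+/mcherry on High Fat Diet (HFD mCherry, replicates 15, 17 and 20), p21+/mcherry-Tert on High Fat Diet (HFD Tert, replicates 25, 26 and 27), and p21+/mcherry-TertCi on High Fat Diet (HFD TertCi, replicates 30, 31 and 33). TertCi is a catalytically inactive Tert. All 4 groups, the controls included, carried 1 knock-in allele at p21, and the cassette is made only where and when the p21 promoter is active. The design text of the series writes the high-fat control as p21 heterozygous without naming mCherry, and the sample labels were followed. The labels do not state age, sex, fat depot, batch or whether each library came from its own animal, so p-values measure the spread between these samples, which may be partly technical.

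The libraries held 16430330 to 19486965 counts and 16231 to 19147 detected genes. The added cassette feature mCherry_Tert had 0 counts in the 6 mCherry libraries and 33 to 86 in the 6 knock-in libraries. Endothelial (Pecam1, 176 to 1134 CPM, the counts scaled to library size) and mural (Rgs5, 28.7 to 256 CPM) markers were present in all 12 libraries, the T cell marker Cd3e was at most 1.22 CPM and the adipocyte marker Adipoq at most 7.85 CPM. Crisp1, a gene of the epididymis epithelium, stood at 641 to 14780 CPM in 8 libraries and below 1 CPM in the other 4, which were 1 library in each group (replicates 2, 20, 27 and 31). The 7 genes of the epididymis epithelium list summed to 4540 to 55100 CPM in SD mCherry, 249 to 5640 in HFD mCherry, 56.4 to 22500 with Tert and 251 to 34600 with TertCi, so the diet groups overlapped only between SD mCherry 2, which held 4540 CPM without Crisp1, and HFD mCherry 15 (5640 CPM). In bulk RNA, fewer cells of a type and less RNA per cell cannot be told apart.

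Scaled to exon length, the target Hes1 was the most abundant of the 10 genes, with a mean over the 12 libraries of 83.1 CPM per kilobase of exon, and the other target, Hey1, stood at 8.75. Hes1 was above Hey1 in 12 of 12 libraries. Among the ligands, Dll4 (20 CPM per kb), Dll1 (19.7) and Jag1 (18.0) lay close together, and their order was not stable: Dll1 was the highest ligand in 6 libraries, Jag1 in 4 and Dll4 in 2. Jag2 was the lowest ligand in 12 of 12 libraries, at 4.32 CPM per kb. Among the receptors, Notch3 (12.4 CPM per kb) and Notch1 (12) were neighbours that changed places between libraries, Notch1 being highest in 8 and Notch3 in 4. Notch2 followed at 8.90 CPM per kb, and Notch4, the receptor best known from endothelial cells, was the lowest in 12 of 12 at 4.49.

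**Figure D1:**
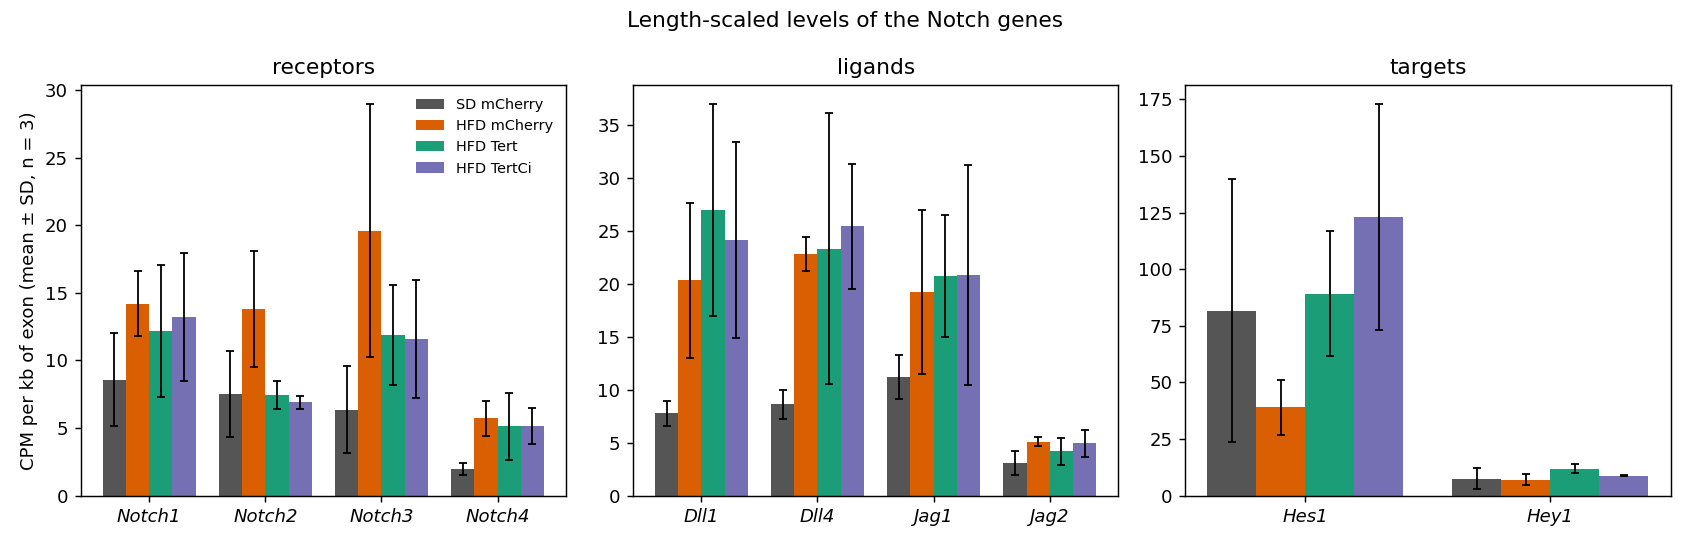
Length-scaled levels (CPM per kb of exon, y axis from 0) of the receptors, ligands and targets in the 4 groups. Bars are means and error bars SDs over 3 libraries. Hes1 stands above every other gene, and Notch4 and Jag2 are the lowest receptor and ligand.

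Summed within a family, the 4 receptors stood at 24.4 ± 9.86 CPM per kb in SD mCherry (SD, n = 3, as for every group value that follows), 53.3 ± 16.7 in HFD mCherry, 36.6 ± 11.7 with Tert and 36.9 ± 10.4 with TertCi. The 4 ligands summed to 30.7 ± 3.04, 67.4 ± 16.0, 75.0 ± 29.2 and 75.3 ± 25.8 CPM per kb in the same order, so their mean was lowest on the standard diet and of similar size in the 3 high-fat groups. The 2 targets summed to 89.0 ± 62.7, 46.0 ± 9.64, 101 ± 25.9 and 131 ± 49.6 CPM per kb, almost all of it Hes1. Here the lowest mean was that of HFD mCherry, the group with the highest receptor sum.

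As a share of the receptor sum, Notch2 averaged 30.7% ± 3.41 in SD mCherry, 25.9% ± 2.74 in HFD mCherry, 21% ± 3.92 with Tert and 19.5% ± 4.32 with TertCi. Notch4 averaged 8.59% ± 2.03, 11% ± 1.19, 13.6% ± 3.70 and 14.1% ± 0.374. Its lowest libraries in HFD mCherry (10.2%) and with Tert (9.4%) lay below the highest of SD mCherry (10.9%). Notch3 averaged 25.7% ± 4.27 in SD mCherry and 31% to 35.5% in the high-fat groups. The range of SD mCherry (21.6% to 30.1%) overlapped those of HFD mCherry (28.9% to 43%) and TertCi (25.6% to 34.9%). Of the ligand sum, Jag1 averaged 36.4% ± 4 in SD mCherry, 27.6% ± 5.74 in HFD mCherry, 28.4% ± 3.73 with Tert and 26.8% ± 4.17 with TertCi. These shares are a description and were not tested.

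Notch3, Notch4, Dll1 and Dll4 had the largest diet fold changes of the 10 genes, and their promoter windows are shown for that reason. Each runs from 250 bases before to 50 after a RefSeq start site in build GRCm38.p6, 5′ to 3′ on the gene's own strand, at chr17:32166841-32167140 (minus strand) for Notch3, chr17:34564045-34564344 (plus) for Notch4, chr17:15376883-15377182 (minus) for Dll1 and chr2:119325534-119325833 (plus) for Dll4. Capitals mark GGAA on either strand (TTCC where it lies on the other), the core that ETS transcription factors bind.
Notch3: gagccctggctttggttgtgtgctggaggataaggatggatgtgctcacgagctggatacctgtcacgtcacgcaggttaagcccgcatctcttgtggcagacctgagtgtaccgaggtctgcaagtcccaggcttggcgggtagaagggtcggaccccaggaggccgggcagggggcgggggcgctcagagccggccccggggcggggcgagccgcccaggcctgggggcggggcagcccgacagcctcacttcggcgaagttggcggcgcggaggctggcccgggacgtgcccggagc
Notch4: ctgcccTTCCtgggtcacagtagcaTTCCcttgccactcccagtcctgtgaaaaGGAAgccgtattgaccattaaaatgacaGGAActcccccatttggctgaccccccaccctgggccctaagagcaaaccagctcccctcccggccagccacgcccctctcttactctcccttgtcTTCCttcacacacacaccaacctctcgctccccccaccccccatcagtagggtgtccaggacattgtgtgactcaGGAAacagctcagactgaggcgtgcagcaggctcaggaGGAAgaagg
Dll1: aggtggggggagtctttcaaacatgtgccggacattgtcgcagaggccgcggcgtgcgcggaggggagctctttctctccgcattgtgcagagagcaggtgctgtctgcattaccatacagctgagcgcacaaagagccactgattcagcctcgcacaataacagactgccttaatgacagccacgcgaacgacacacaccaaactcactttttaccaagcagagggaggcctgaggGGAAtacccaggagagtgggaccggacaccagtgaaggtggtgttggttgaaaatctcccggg
Dll4: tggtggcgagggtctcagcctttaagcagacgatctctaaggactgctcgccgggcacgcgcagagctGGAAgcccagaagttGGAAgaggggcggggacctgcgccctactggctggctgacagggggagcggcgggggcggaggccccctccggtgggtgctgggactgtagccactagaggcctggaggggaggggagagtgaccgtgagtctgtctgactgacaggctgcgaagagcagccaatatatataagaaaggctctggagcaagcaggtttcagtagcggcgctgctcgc
The Notch4 window held 7 GGAA cores, 4 of them within the longer AGGAAG, the Dll4 window held 2, the Dll1 window 1 and the Notch3 window 0. So the genes with the largest fold changes did not share a GGAA count. RefSeq windows were matched for 8 of the 10 genes, with 9 windows because Dll1 has 2, and not for Hes1 and Hey1. The Notch1 window, which counts in every share, lies 12841 bases from the start of the gene in GENCODE M21. Searched on both strands, GGAA was in 7 of the 9 windows (77.8%) against 96.0% of all 32851 promoters, AGGAAG in 22.2% against 35.4%, and TGGGAA, the core of the RBPJ site, in 0 of 9 against 25.6%. GTGGGAA, a longer form of it, was in 0 against 6.38%. The E-box CACGTG, which HES and HEY proteins can bind, was in 0 against 7.15%, and the GC box GGGCGG in 55.6% against 35.7%. GGAA lies inside AGGAAG and TGGGAA, so these matches overlap. The 9 windows held 55.7% to 86.0% G and C, against a median of 52.7% over all promoters. The part of base content in these shares was not tested. A match of letters is no evidence of binding, and a window without one says nothing of sites elsewhere.

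High-fat diet against standard diet, both in p21+/mcherry mice, compared these genes between the diets within 1 genotype. The comparison does not isolate the diet, since the groups also differed in mean epididymis epithelium RNA and the labels give no batch. Of the 10 genes, 8 had a higher fitted level in HFD mCherry and 2 (Hes1 and Hey1, the targets) a lower one, where 45.9% of all genes were higher. None passed the threshold in edgeR's quasi-likelihood test (Benjamini-Hochberg adjusted p under 0.05), which called 0.0479% of all 16713 genes. The median log2 fold change of the 10 genes was 0.82, against -0.08 over all genes tested. Unadjusted p was under 0.05 for 6 of them, all higher, against 24.1% of all genes, and in 6 (Notch1, Notch3, Notch4, Dll1, Dll4 and Jag2) every HFD mCherry library lay above every SD mCherry library, against 13.9% of all genes.

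Of the receptors, Notch4 separated the diets most clearly relative to its spread. It stood at 18.7, 17 and 11.8 CPM in SD mCherry and 34.4, 49.1 and 54.8 CPM in HFD mCherry. The highest standard-diet library was thus well below the lowest high-fat one, with a log2 fold change of 1.54 ± 0.37 (SE) and an adjusted p of 0.0729 in edgeR. Notch3, whose product is best known from the mural cells around vessels, had the largest fold change of the receptors. Its levels were 78.8, 48.0 and 27.3 CPM in SD mCherry and 80.8, 164 and 231 CPM in HFD mCherry. The groups touched within a few CPM at their nearest libraries, and the log2 fold change was 1.63 ± 0.483 (edgeR adjusted p = 0.0971).

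Notch1, the broadly expressed receptor, stood at 158, 141 and 66.1 CPM in SD mCherry and 163, 220 and 223 CPM in HFD mCherry, again with almost no gap between the nearest libraries. Its log2 fold change was 0.73 ± 0.386 (edgeR adjusted p = 0.264). Notch2 overlapped between the diets, at 99.1, 103 and 41.9 CPM against 95.3, 182 and 167 CPM, with a log2 fold change of 0.87 ± 0.337 (edgeR adjusted p = 0.164). For Notch1, Notch2, Notch3 and Notch4 alike the lowest of the 12 libraries was SD mCherry 3. Without that library the log2 fold change was 0.43 for Notch1 and 0.56 for Notch2.

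The ligands Dll1 and Dll4 were low and tight on the standard diet. Dll4, the ligand of endothelial tip and arterial cells, stood at 39.0, 29.4 and 31.1 CPM in SD mCherry and 81.1, 89.5 and 93.3 CPM in HFD mCherry. Every high-fat library was more than 2 times the highest standard-diet library, with a log2 fold change of 1.41 ± 0.355 (edgeR adjusted p = 0.0757). Dll1 stood at 28.2, 38.2 and 32.0 CPM against 51.3, 111 and 94.4 CPM, a log2 fold change of 1.38 ± 0.375 (edgeR adjusted p = 0.0849). Its libraries did not overlap either, although HFD mCherry 15 was much lower than the other HFD mCherry libraries.

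The Jagged ligands differed less. Jag1, which cells of the vessel wall also make, stood at 62.4, 78.9 and 55.0 CPM in SD mCherry and 60.8, 128 and 147 CPM in HFD mCherry. HFD mCherry 15 lay inside the standard-diet range, and the log2 fold change was 0.77 ± 0.40 (edgeR adjusted p = 0.255). Jag2 was at 30, 19.6 and 15 CPM against 36.4, 31.9 and 37.8 CPM, with a log2 fold change of 0.71 ± 0.309 (edgeR adjusted p = 0.193).

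The targets Hes1 and Hey1 did not follow the receptors and ligands. Of 6 other target genes tested, 4 had a higher and 2 a lower fitted level in HFD mCherry, where 45.9% of all genes were higher. Hes1 stood at 105, 90.9 and 303 CPM in SD mCherry and 106, 75.0 and 57.4 CPM in HFD mCherry, a log2 fold change of -1.07 ± 0.491 (edgeR adjusted p = 0.214). The groups overlapped, and the mean difference came largely from SD mCherry 3: without it the value was -0.30 (edgeR adjusted p = 0.705). Hey1 stood at 15.9, 15.2 and 41.6 CPM against 13.8, 25.9 and 29.0 CPM, a log2 fold change of -0.08 ± 0.395 (edgeR adjusted p = 0.908), and without SD mCherry 3 it was 0.55.

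The calls in the diet comparison depended on the tool and on 1 library, and the epididymis epithelium list had a mean log2 CPM of 8.94 ± 2.24 in SD mCherry against 5.87 ± 3.20 in HFD mCherry. DESeq2 called Notch3, Notch4, Dll1 and Dll4 higher in HFD mCherry, with adjusted p of 0.0156, 0.00385, 0.0127 and 0.00724, where it called 12.9% of all genes, and 8.29% as higher. Without HFD mCherry 15, edgeR called the same 4 genes, with adjusted p of 0.0276, 0.025, 0.0213 and 0.0426, where it called 12.2% of all genes. With the level of the epididymis epithelium list as a covariate, edgeR called Notch4, Dll1 and Dll4, with adjusted p of 0.0327, 0.042 and 0.0476, and 3.87% of all genes. A list of 10 dissociation stress genes, such as Fos and Hspa1a, had a mean log2 CPM of 10.08 ± 0.47 in SD mCherry. It was 9.46 ± 0.33 in HFD mCherry, 9.40 ± 0.22 with Tert and 9.47 ± 0.26 with TertCi. The part of this difference in the diet fold changes was not tested.

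**Figure D2:**
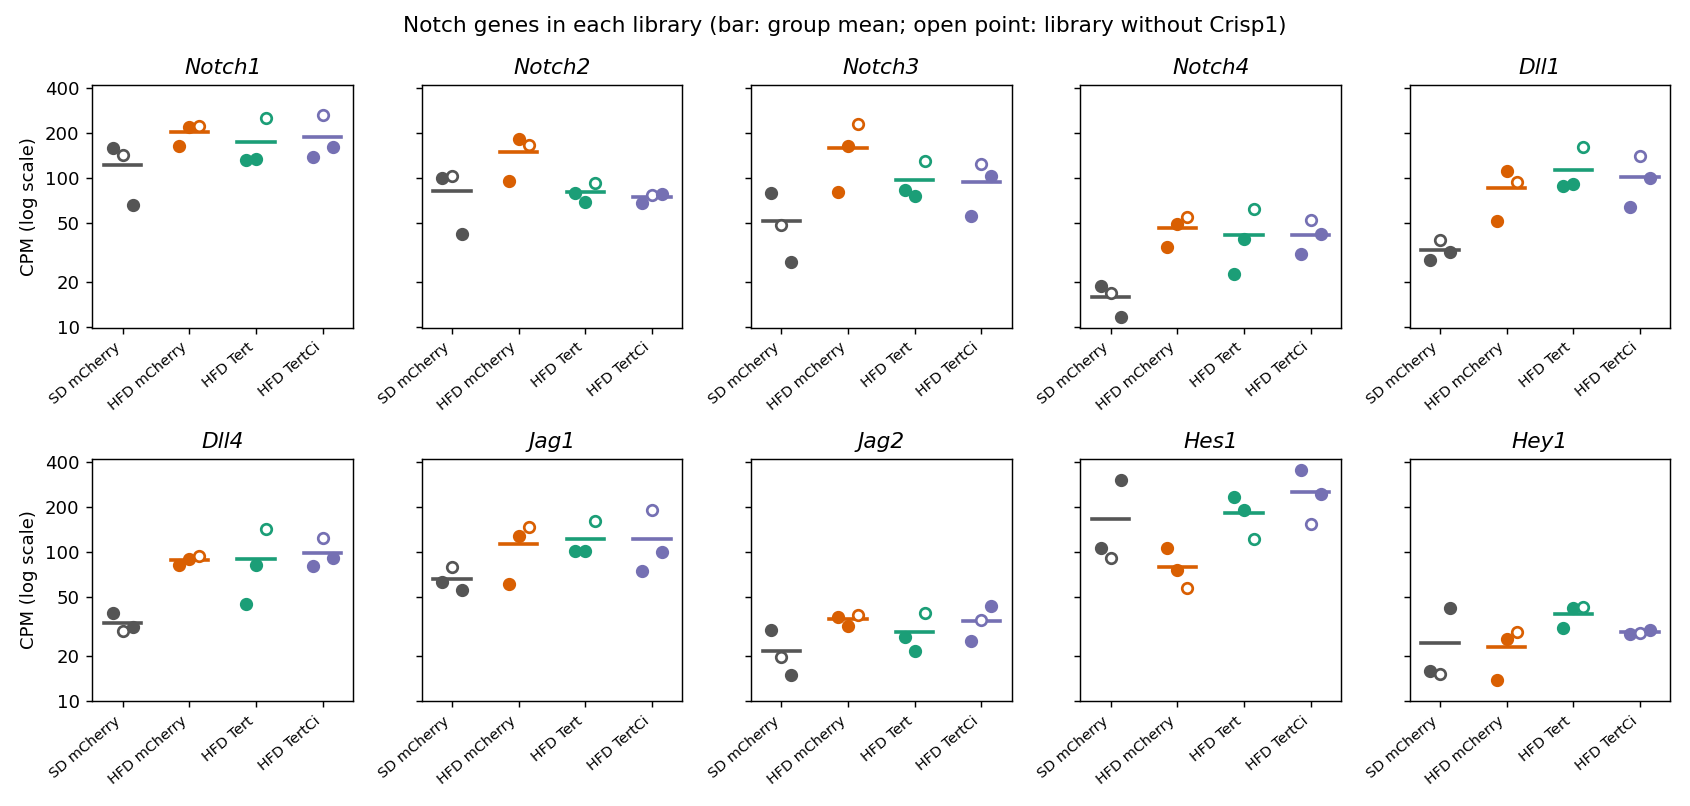
CPM on a log axis for each of the 10 genes in the 12 libraries, by group. Points are libraries, horizontal bars group means, and open points the 1 library per group without Crisp1. Dll4 and Notch4 separate SD mCherry from HFD mCherry, and in Hes1 the open point is the lowest of each group.

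The other main comparisons set each knock-in group against HFD mCherry. Since both use the same HFD mCherry libraries, which also enter the diet comparison, their fold changes are not independent of each other. In HFD Tert, 5 of the 10 genes had a higher and 5 a lower fitted level than in HFD mCherry, with a median log2 fold change of -0.07 (-0.05 over all genes, of which 46.2% were higher). None was called by edgeR, which called 0% of all genes. In HFD TertCi the split was also 5 and 5 (6 and 4 with library-size scaling, which made Jag2 positive), the median was 0.04 (-0.04 over all genes, of which 47.4% were higher) and none was called, against 0.012% of all genes. With Tert, unadjusted p was under 0.05 for Notch2 (lower) and Hes1 (higher), against 16.4% of all genes. With TertCi it was under 0.05 for Notch2 (lower) and Hes1 (higher), against 14.7% of all genes.

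Notch2 was at 95.3, 182 and 167 CPM in HFD mCherry, 79.4, 69.2 and 91.7 CPM in HFD Tert and 68.1, 77.3 and 77.7 CPM in HFD TertCi. All 6 knock-in libraries lay below the lowest HFD mCherry library, though HFD mCherry 15 was just above the highest of them. The log2 fold change was -0.89 ± 0.338 with Tert (edgeR adjusted p = 0.248) and -1 ± 0.338 with TertCi (edgeR adjusted p = 0.246). Libraries that lay wholly below HFD mCherry were found for 11.1% of all genes with Tert and 12% with TertCi. The knock-in means, 80.1 ± 11.3 and 74.4 ± 5.44 CPM, were close to the 81.2 ± 34.1 CPM of SD mCherry.

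Hes1 was the gene of the 10 that stood highest above HFD mCherry. It was at 106, 75.0 and 57.4 CPM in HFD mCherry, 233, 190 and 122 CPM with Tert and 354, 152 and 243 CPM with TertCi. Every knock-in library was above every HFD mCherry library, with log2 fold changes of 1.19 ± 0.492 with Tert (edgeR adjusted p = 0.274) and 1.65 ± 0.498 with TertCi (edgeR adjusted p = 0.212). Libraries wholly above HFD mCherry were found for 9.99% of all genes with Tert and 9.45% with TertCi. DESeq2 called Hes1 with TertCi (log2 fold change 1.66, adjusted p = 0.0335), where it called 4.3% of all genes (1.37% as higher), and did not call it with Tert, where it called 5.09% (1.9% as higher).

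Hey1 was at 30.9, 41.7 and 42.8 CPM in HFD Tert, all above the 13.8, 25.9 and 29.0 CPM of HFD mCherry, with a log2 fold change of 0.75 ± 0.397 (edgeR adjusted p = 0.364). In HFD TertCi it was at 28.1, 28.4 and 29.8 CPM, inside or just above the HFD mCherry range, with a log2 fold change of 0.33 ± 0.395 (edgeR adjusted p = 0.725). The 3 HFD TertCi libraries agreed closely, with an SD of 0.911 CPM.

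Notch3 was at 83.2, 75.2 and 131 CPM in HFD Tert and 55.2, 124 and 103 CPM in HFD TertCi, overlapping HFD mCherry in both. Its log2 fold change was -0.72 ± 0.473 (edgeR adjusted p = 0.455) and -0.75 ± 0.473 (edgeR adjusted p = 0.477). Notch1 and Notch4 differed by less than their SE: Notch1 was at 132, 134 and 253 CPM with Tert and 138, 263 and 161 CPM with TertCi, with log2 fold changes of -0.22 and -0.11. Notch4 was at 22.5, 39.0 and 62.3 CPM with Tert and 30.9, 52.3 and 41.8 CPM with TertCi, with log2 fold changes of -0.16 and -0.15. Both receptors varied more among the HFD Tert libraries than between the group means.

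The fitted levels of the ligands lay near those of HFD mCherry. Dll1 was at 87.6, 90.4 and 162 CPM with Tert and 63.4, 141 and 100.2 CPM with TertCi, with log2 fold changes of 0.41 ± 0.368 and 0.25 ± 0.368. Dll4 was at 44.6, 81.7 and 143 CPM with Tert and 80.2, 124 and 90.0 CPM with TertCi, with log2 fold changes of 0.03 ± 0.348 and 0.16 ± 0.348. The HFD Tert libraries thus spanned a wider range of Dll4 than HFD mCherry, whose SD was 6.25 CPM against 49.5 CPM. Jag1 (102, 101 and 159 CPM with Tert, 74.2, 190 and 100 CPM with TertCi) and Jag2 (26.7, 21.6 and 38.8 CPM, and 25.4, 34.7 and 43.1 CPM) had log2 fold changes between -0.28 and 0.12.

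**Figure D3:**
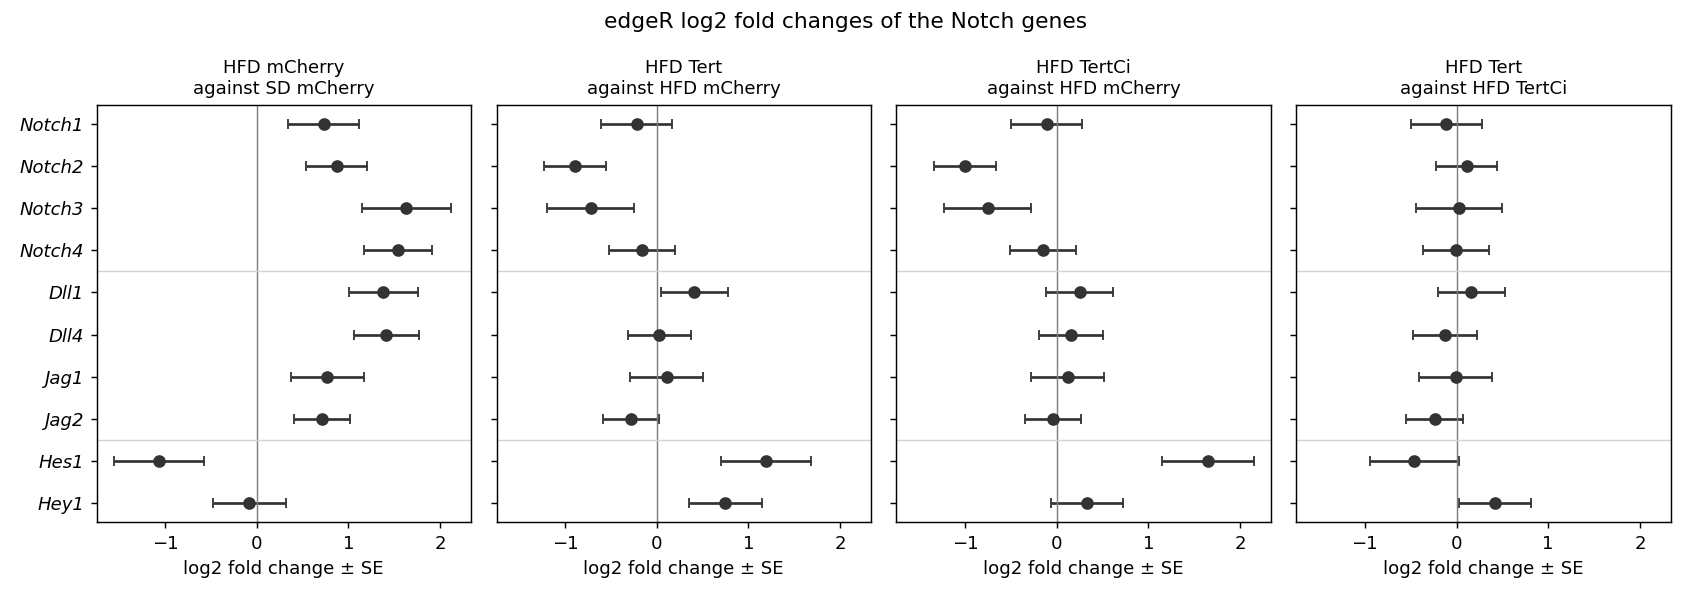
Log2 fold changes of the 10 genes with their SE (x axis) in the 4 comparisons, from the edgeR fit. In the diet comparison the receptors and ligands lie right of 0 and Hes1 lies left; against HFD mCherry, Notch2 lies left and Hes1 right with both forms of Tert. No gene passed an adjusted p of 0.05.

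HFD Tert against HFD TertCi addressed the catalytic activity of Tert. None of the 10 genes was called by edgeR (adjusted p 1 for each), which called 0% of all genes, and 0 of 10 had an unadjusted p under 0.05, against 1.36% of all genes. The median log2 fold change was -0.01, as over all genes, and 4 of the 10 had a higher fitted level with Tert, against 48.2% of all genes. DESeq2 called 0 of the 10 too, and 0.0423% of all genes (0.0181% as higher). The largest differences were those of the targets: Hes1 at -0.46 ± 0.486 and Hey1 at 0.42 ± 0.395. Hey1 was the only one of the 10 whose libraries did not overlap between the 2 groups, higher with Tert, against 2.55% of all genes. The receptors and ligands lay between -0.24 (Jag2) and 0.16 (Dll1), each with an SE of 0.307 to 0.471, so differences of that size were not detectable at this replication. An F-test over all 4 groups called 0 of the 10 (0.012% of all genes). Its smallest edgeR adjusted p values were 0.127 for Dll1, 0.133 for Dll4 and 0.142 for Notch4, and unadjusted p was under 0.05 for 6 of the 10 against 20.2% of all genes. In the same F-test DESeq2 called Notch4, Dll1 and Dll4 (13.8% of all genes), and edgeR called Dll1 with the epithelial covariate (3.22%) and without HFD mCherry 15 (3.81%).

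The rest of the pathway was taken from a list of 53 genes, of which 50 were tested. Dll3, Hes2 and Hes3 were below the filter, with at most 13 counts in any library. In the fit to all 12 libraries without covariates, edgeR called 0 of the 50 in each comparison. Unadjusted p was under 0.05 for 20 with the diet (14 higher and 6 lower in HFD mCherry), 11 with Tert (3 higher, 8 lower), 8 with TertCi (1 higher, 7 lower) and 0 between the forms, against 24.1%, 16.4%, 14.7% and 1.36% of all genes. DESeq2 called 8 of the 50 with the diet (6 higher, 2 lower), 5 with Tert (2 higher, 3 lower), 4 with TertCi (all lower) and 0 between the forms, against 12.9%, 5.09%, 4.3% and 0.0423% of all genes. Adam17, Dtx4 and Ncstn were among its calls in the first 3 of these comparisons, which share the HFD mCherry libraries. With the epithelial covariate edgeR called 3 of the 50 in each of these, Adam17 each time, against 3.87%, 2.78% and 1.12% of all genes. Without HFD mCherry 15 it called 11 of 51 with the diet, 0 with Tert and 1 with TertCi, against 12.2%, 0.299% and 1.16% of all genes. The median log2 fold changes of the 50 were 0.16, -0.04, -0.15 and 0, against -0.08, -0.05, -0.04 and -0.01 over all genes.

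The receptor-cutting machinery comprised 10 genes (the ADAM proteases, furin and gamma-secretase subunits). With the diet, 7 had a higher and 3 a lower fitted level, and 6 passed an unadjusted p of 0.05, all higher in HFD mCherry (24.1% of all genes). With Tert 3 were higher and 7 lower, and with TertCi 2 and 8. In each of these, 5 passed an unadjusted p of 0.05, all lower than in HFD mCherry (16.4% and 14.7% of all genes). None was called by edgeR in the fit to all 12 libraries without covariates. Adam17, a protease that sheds many surface proteins besides Notch, averaged 70.7 ± 8.90 CPM in SD mCherry, 135 ± 32.3 in HFD mCherry, 74.4 ± 14.3 with Tert and 65.9 ± 11.8 with TertCi. Its log2 fold change was 0.93 ± 0.234 with the diet (edgeR adjusted p = 0.0757) and -1.03 ± 0.235 with TertCi (edgeR adjusted p = 0.165). Adam10, the main protease for ligand-bound Notch, averaged 131 ± 13.7 CPM in HFD mCherry, 144 ± 7.16 with Tert and 115 ± 20.5 with TertCi, with a log2 fold change of 0.32 ± 0.176 between the forms (edgeR adjusted p = 1).

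Among the genes that act on receptor and ligand trafficking, 2 Deltex genes, which encode ubiquitin ligases, had diet differences of opposite sign. Dtx4 averaged 46.3 ± 12.5 CPM in SD mCherry, 91.0 ± 9.81 in HFD mCherry, 31.3 ± 10.4 with Tert and 36.2 ± 5.03 with TertCi. Against HFD mCherry its log2 fold change was -1.54 ± 0.277 with Tert (edgeR adjusted p = 0.147) and -1.33 ± 0.275 with TertCi (edgeR adjusted p = 0.154), a larger difference than that of any receptor. Dtx1 averaged 23.0 ± 9.57 CPM in SD mCherry and 6.32 ± 1.80 CPM in HFD mCherry, a log2 fold change of -1.86 ± 0.421 (edgeR adjusted p = 0.0706). Hdac1, a histone deacetylase of the corepressor complex, averaged 30.5 ± 4.25 CPM in HFD mCherry and 53.7 ± 8.15 CPM in HFD Tert, with a log2 fold change of 0.82 ± 0.213 (edgeR adjusted p = 0.187). Dlk1, a non-canonical ligand known from preadipocytes, was at 2.91 ± 1.48 to 7.67 ± 3.94 CPM in the 4 groups.

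Nrarp, a target gene that feeds back on the pathway, had the pattern of the ligands rather than that of Hes1. It was at 38.6, 45.5 and 37.5 CPM in SD mCherry, 59.7, 107 and 119 CPM in HFD mCherry, 88.2, 109 and 177 CPM with Tert and 84.2, 166 and 108 CPM with TertCi. The log2 fold change of Nrarp with the diet was 1.24 ± 0.349 (edgeR adjusted p = 0.0895), with no overlap between the groups. DESeq2 called Nrarp with the diet (12.9% of all genes). So did edgeR with the epithelial covariate (3.87%) and without HFD mCherry 15 (12.2%). The log2 fold changes of Nrarp against HFD mCherry were 0.39 with Tert and 0.32 with TertCi. The group means of Hes1, Hey1 and Nrarp thus ran in 3 different orders, though several neighbouring means lay within their spread.

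Marker levels of the cell types that use Notch also differed between the groups. The 12 endothelial markers, all tested and none at 0 in any library, summed to 1180 to 1630 CPM in SD mCherry, 2110 to 3920 in HFD mCherry, 2800 to 6370 with Tert and 2910 to 6790 with TertCi. With the diet, 11 of these 12 markers had a higher fitted level, against 45.9% of all genes. edgeR called 0 of the markers (0.0479% of all genes), and 8 had an unadjusted p under 0.05 (24.1% of all genes). Dll1 kept close to them: its SD over the 12 libraries was 0.83 on the log2 CPM scale, and 0.20 once the mean of the endothelial list was subtracted. The same subtraction took the SD from 0.76 to 0.37 for Notch4, from 0.76 to 0.39 for Dll4 and from 0.58 to 0.30 for Jag1. For 4 genes the SD went up: from 0.57 to 0.82 for Notch2, 0.46 to 0.59 for Jag2, 0.83 to 1.15 for Hes1 and 0.56 to 0.67 for Hey1.

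What was left of Dll1 after the subtraction was -1.55 ± 0.17 in SD mCherry, -1.16 ± 0.12 in HFD mCherry, -1.23 ± 0.17 with Tert and -1.41 ± 0.10 with TertCi (log2). The diet difference of Dll1 was smaller once the endothelial markers were subtracted, and its fitted log2 fold change was 1.38 without that step. Notch4 minus the endothelial list was -2.62 ± 0.27, -2.01 ± 0.20, -2.74 ± 0.24 and -2.65 ± 0.27 in the same order. The 3 HFD mCherry libraries (-2.20 to -1.80) lay above the other 9, whose highest value was -2.32. How many of all genes separate this way after the same subtraction was not counted. Relative to the mean of the endothelial list, then, Notch4 was highest in HFD mCherry, while its CPM was similar in the 3 high-fat groups. That list was mixed, as a look at its genes after their values were seen showed. In the same order Vwf averaged 166, 194, 456 and 513 CPM and Emcn 55.7, 51.3, 149 and 170. Cdh5 (167, 525, 566 and 556) and Flt1 (53.7, 166, 140 and 152) were of similar size in the 3 high-fat groups, as Notch4 was.

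Notch1, Notch2 and Notch3 kept closer to the adipose progenitor markers. Their subtraction took the SD from 0.54 to 0.36 for Notch1, from 0.57 to 0.31 for Notch2 and from 0.83 to 0.35 for Notch3. Subtracting the endothelial list left Notch1 at 0.49. The 10 progenitor markers, all tested, summed to 3480 to 4860 CPM in SD mCherry, 5330 to 14800 in HFD mCherry, 5500 to 10000 with Tert and 4520 to 9660 with TertCi. One of them, Pdgfra, was called lower in HFD TertCi than in HFD mCherry (log2 fold change -1.84 ± 0.22, edgeR adjusted p = 0.0426). The 10 macrophage markers summed to 1090 to 1230, 2370 to 5880, 921 to 2420 and 1140 to 1720 CPM, and so were also highest in HFD mCherry. Subtracting the macrophage list took the SD of Notch2 from 0.57 to 0.59, of Notch1 from 0.54 to 0.73 and of Notch3 from 0.83 to 0.63. The part of these cell types in the levels of Notch1, Notch2 and Notch3 was not tested.

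Hes1 kept closer to the mural list, whose 10 markers (pericyte and smooth muscle genes) summed to 2790 to 20800 CPM in SD mCherry, 1830 to 3170 in HFD mCherry, 3080 to 20200 with Tert and 4240 to 12600 with TertCi. Subtracting the mural list took the SD of Hes1 from 0.83 to 0.49. Hes1 minus the mural list was -0.75 ± 0.48, -0.99 ± 0.55, -0.92 ± 0.45 and -0.32 ± 0.39 in the 4 groups. Relative to these markers the means of HFD Tert and HFD mCherry differed by less than their SDs. The mean of HFD TertCi stayed above that of HFD mCherry by more than either SD. Their libraries overlapped, at -0.66 to 0.11 in HFD TertCi and -1.44 to -0.37 in HFD mCherry. The list was mixed, as a look at its genes after their values were seen showed. The sums were carried by smooth muscle genes such as Myh11 (2480 ± 2340 CPM in SD mCherry, 439 ± 232 in HFD mCherry), Tagln (3240 ± 2950 and 687 ± 212) and Cnn1 (2360 ± 2810 and 249 ± 192). Genes known from pericytes were divided. Rgs5 (81.8 ± 46.3 and 176 ± 83.0 CPM), Abcc9 (46.4 ± 7.28 and 91.4 ± 33.9) and Pdgfrb (57.5 ± 8.94 and 198 ± 85.4) had the opposite diet difference. Kcnj8 (78.5 ± 72.2 and 33.7 ± 8.07) and Cspg4 (52.9 ± 6.59 and 32.2 ± 6.46) had lower means in HFD mCherry, as the smooth muscle genes did. The SD of Notch3 went from 0.83 to 1.29 when the mean of this mixed list was subtracted. The group means of Notch3 (51.4, 159, 96.3 and 94.1 CPM) ran in the same order as those of Pdgfrb (57.5, 198, 119 and 110), Rgs5 (81.8, 176, 125 and 114) and Abcc9 (46.4, 91.4, 89.3 and 73.4). Those of Kcnj8 (78.5, 33.7, 99.7 and 75.6), Cspg4 (52.9, 32.2, 63.7 and 50.4) and Mcam (193, 198, 285 and 268) ran in other orders. All of these genes were singled out after their values were seen. The part of mural RNA in the Hes1 differences was not tested.

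**Figure D4:**
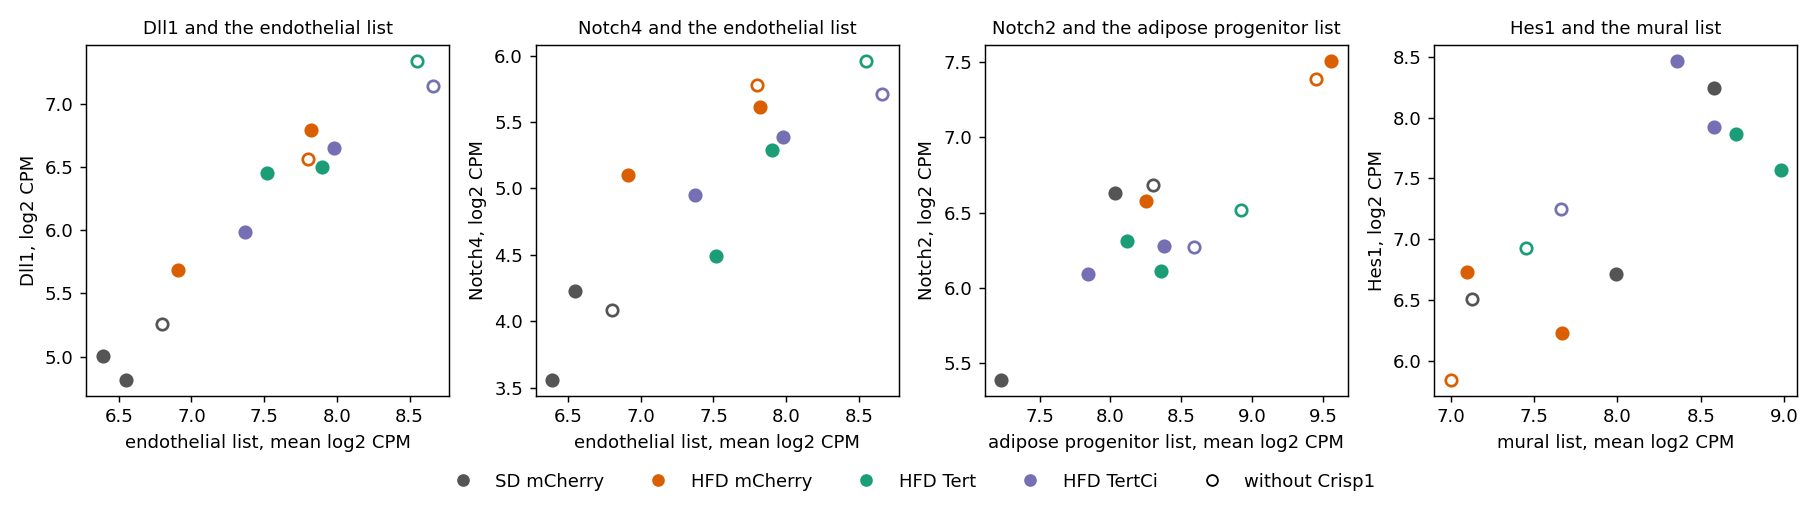
Log2 CPM of Dll1 and Notch4 against the mean of the endothelial list, of Notch2 against the adipose progenitor list and of Hes1 against the mural list. Each point is 1 of the 12 libraries, coloured by group, and open points are libraries without Crisp1. Dll1 follows the endothelial list across all groups.

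Hes1 also differed between libraries with and without the epididymal gene Crisp1. The library without Crisp1 had the lowest Hes1 of its group in all 4 groups, at 90.9 CPM on standard diet, 57.4 in HFD mCherry, 122 with Tert and 152 with TertCi. The libraries with Crisp1 averaged 204, 90.4, 212 and 299 CPM in the same order. In the 3 high-fat groups the library without Crisp1 instead had the highest Notch1, Notch3, Notch4, Dll4 and Jag1 of its group. In SD mCherry that library had the highest Jag1 but the lowest Dll4 (29.4 CPM, against a mean of 35.1 with Crisp1). There it was in between for Notch1, Notch3 and Notch4. These ranks rest on 1 library per group, and the share of all genes with such ranks was not counted. Dll4 in HFD Tert was 143 CPM without Crisp1 and averaged 63.2 CPM with it. With the 8 libraries with Crisp1 alone, the log2 fold changes of Hes1 were -1.17 with the diet, 1.23 with Tert and 1.72 with TertCi, and those of Notch4, Dll1 and Dll4 with the diet were 1.44, 1.42 and 1.28. In that smaller fit edgeR called 0 of the 10 genes in every comparison, and unadjusted p was under 0.05 for 3 with the diet, 1 with each form of Tert and 0 between the forms, against 15.8%, 13.7%, 10.2% and 1.91% of all genes.

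The make-up of the libraries moved with Hes1 as well. Genes with less than 1500 bases of exon took 6.10% to 10.1% of the counts in HFD mCherry, 7.58% to 14.9% in SD mCherry, 8.35% to 11.2% with Tert and 9.18% to 12.2% with TertCi. The 2 libraries with the most Hes1, HFD TertCi 30 and SD mCherry 3, had the 2 highest shares (12.2% and 14.9%), and HFD mCherry 20, with the least Hes1, had the lowest. Crisp1 is itself a short, abundant gene in 8 of the libraries. Genes with more than 5000 bases of exon include Notch1, Notch2, Notch3, Notch4, Jag1 and Jag2. Such genes took 31.8% to 41.4% of the counts in SD mCherry and 37.5% to 45.7% in HFD mCherry. With Tert they took 37.2% to 41.3%, and with TertCi 35.9% to 39.9%. The lowest share of the long genes was in SD mCherry 3, which also had the lowest level of each receptor. The part of these differences in the levels of Hes1, the receptors and the ligands was not tested.

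The genes whose log2 CPM was most like that of each member over the 12 libraries were ranked by Pearson's r among the 12356 genes that averaged 5 CPM or more. Because they were picked as the highest of so many, and all libraries share depth and cell make-up, the values are descriptions. For Dll1 they were S1pr1 (r = 0.989, Spearman's rho = 0.986), Nrarp (r = 0.986, rho = 0.93) and Gpr4 (r = 0.984, rho = 0.986). For Notch4 they were Sh2d3c (r = 0.988, rho = 0.972), Cyp4b1 (r = 0.984, rho = 0.986) and Pcdh12 (r = 0.984, rho = 0.937). S1pr1 encodes a sphingosine phosphate receptor and Pcdh12 a protocadherin, both well known from endothelial cells.

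For the other ligands, the leading genes were Dysf (r = 0.983), Pdia5 (r = 0.976) and Ushbp1 (r = 0.97) for Dll4, Pdlim5 (r = 0.988), Cpne2 (r = 0.985) and Sema6a (r = 0.984) for Jag1, and Adar (r = 0.938), Shroom4 (r = 0.9) and Itsn2 (r = 0.889) for Jag2. Jag2 had the weakest likeness of the 10 genes. For the receptors they were Cramp1l (r = 0.975), Sema3d (r = 0.97) and Zc3h11a (r = 0.97) for Notch1, Mfhas1 (r = 0.978), Cd33 (r = 0.975) and Tmem87b (r = 0.972) for Notch2, and Taok1 (r = 0.982), Slfn5os (r = 0.98) and Sh2b3 (r = 0.975) for Notch3. Hes1 was most like Smdt1 (r = 0.969), Dpm1 (r = 0.962) and Ndufa3 (r = 0.958), of which Smdt1 and Ndufa3 encode small mitochondrial inner-membrane proteins. Hey1 was most like Rtn2 (r = 0.939), Cct5 (r = 0.936) and Rab29 (r = 0.933).

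Some counts could include reads of an overlapping gene, since the use of strand in counting is not given in the sources used here. In GENCODE M21 (GRCm38), Notch1 (chr2:26457903-26516663, minus strand), Notch3 (chr17:32120820-32166852, minus), Notch4 (chr17:34564268-34588503, plus), Dll1 (chr17:15367354-15376872, minus) and Dll4 (chr2:119325784-119335962, plus) overlap a gene on the opposite strand. Of these partners only Gm14207, opposite the start of Dll4, has a row of its own in the tables, with 59 to 260 counts per library against 537 to 2426 for Dll4. Notch2 (chr3:98013527-98150361, plus) and Jag2 (chr12:112907819-112929776, minus) overlap only features on their own strand. Jag1 (chr2:137081456-137116644, minus), Hes1 (chr16:30064384-30067796, plus) and Hey1 (chr3:8663359-8667256, minus) overlap no other annotated gene.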

How the data were processed

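Poly-A selected RNA was sequenced from 12 libraries in 4 groups of 3. Each library has its own deposited file of raw gene counts, per the file headers, which the authors made with featureCounts 1.6.4 on build mm10, per the submitters' processing notes, which also name Subread and SAMtools. The annotation and strand setting are not given in the sources used here. Counts were used as deposited. In R 4.3.3, edgeR 4.0.16 kept 16713 genes by filterByExpr, scaled libraries by TMM (0.854 to 1.15) and fitted 1 robust quasi-likelihood model to the 12 libraries without covariates (common biological coefficient of variation 0.536). Tests were 2-sided, with Benjamini-Hochberg adjustment over all genes and a threshold of 0.05. CPM uses TMM-scaled library sizes, log2 CPM adds 0.5 to each count, and CPM per kb divides by the exon union of GENCODE M21.

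The members, gene lists and tests were chosen with earlier results of these data known. Named were the 10 members, in each comparison the 2 other pathway genes with the smallest unadjusted p, defining cell markers, and for each member the 3 most similar genes. Nrarp was named as one of these, and its levels were singled out after they were seen. Ncstn was named for its DESeq2 calls. Alternatives were DESeq2 1.42.0, limma-voom (limma 3.58.1), library-size scaling, no filter, an epithelial score as covariate, only the groups compared, leaving out each library, and only libraries with Crisp1. The fit was tested on simulated counts. Promoter sequences are RefSeq's. Poisson error at these depths is small beside the spread between libraries.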

Additional observations from a re-analysis of the deposited data

How the results depend on the processing

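Of 520 recomputed fold changes of the 10 genes, 461 kept their direction and their side of the threshold, 12 passed it under an alternative alone and 47 changed sign. The cause of these differences was not tested. Members called, 0 in every comparison with edgeR, numbered 4 (diet), 1 (TertCi) and 3 (F-test) with DESeq2, and 3 (diet) and 1 (F-test) with the epithelial score as covariate. With that covariate the diet calls were Notch4 (1.20, adjusted p = 0.0327), Dll1 (1.01, 0.042) and Dll4 (1.12, 0.0476). Leaving out 1 library gave 0 to 4 members called with the diet and 0 to 1 in the F-test, the highest each time without HFD mCherry 15, and 0 in the other comparisons. limma-voom, library-size scaling, no filter, only the groups compared and only libraries with Crisp1 (chosen after seeing the data) called 0 members.

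Genes called over the whole table numbered 8 (diet), 0 (Tert), 2 (TertCi), 0 (Tert against TertCi) and 2 (F-test). DESeq2 gave 2055, 842, 684, 7 and 2281, and the covariate 647, 464, 187, 0 and 538. limma-voom gave 0 with the diet and in the F-test. Library-size scaling gave 1 with TertCi. Only the groups compared gave 0 with the diet and with TertCi, and only libraries with Crisp1 gave 0 with the diet, with TertCi and in the F-test. Leaving out 1 library gave 0 to 2082 (diet), 0 to 51 (Tert), 0 to 198 (TertCi), 0 (Tert against TertCi) and 0 to 651 (F-test). Library-size scaling moved the diet median of all genes from -0.08 to -0.27, and that of the members from 0.82 to 0.56.

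The fold changes whose sign changed under any alternative were within 0.25 of 0 in the edgeR fit. With limma-voom they were Hey1 with the diet (0.0242), Dll4 with Tert (-0.13) and Jag1 between the forms (0.0681). With the covariate they were Dll4 with Tert (-0.0409), Notch1 (0.00918), Notch4 (0.0185) and Jag2 (0.0167) with TertCi, and Notch3 between the forms (-0.0758). Jag2 with TertCi was 0.0566 with library-size scaling and 0.037 with only the groups compared. With only libraries with Crisp1 they were Dll4 with Tert (-0.43), Dll4 (-0.00475), Jag1 (-0.11) and Jag2 (0.0012) with TertCi, and Jag1 between the forms (0.22).

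Leaving out each library in turn also changed signs. With the diet, Hey1 ran from -0.33 to 0.55. With Tert, Notch4 ran from -0.58 to 0.14, Dll4 from -0.48 to 0.35 and Jag1 from -0.19 to 0.36. With TertCi, Notch1 ran from -0.44 to 0.0703, Notch4 from -0.34 to 0.0307, Dll1 from -0.0634 to 0.50, Dll4 from -0.0468 to 0.28, Jag1 from -0.36 to 0.37 and Jag2 from -0.24 to 0.14. Between the forms, Notch1 ran from -0.49 to 0.21, Notch2 from -0.00106 to 0.20, Notch3 from -0.25 to 0.28, Notch4 from -0.44 to 0.28, Dll1 from -0.19 to 0.47, Dll4 from -0.63 to 0.19 and Jag1 from -0.26 to 0.47. Hes1 ran from -1.36 to -0.30 with the diet, 0.97 to 1.46 with Tert and 1.32 to 1.92 with TertCi.

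No paired analysis was possible because no replicate number occurs in more than 1 group. What limited the number of calls was not tested: with 3 libraries per group and a common coefficient of variation of 0.536, edgeR called 8 genes and DESeq2 2055 with the diet.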
